A study of Mus musculus with 9 samples.

Results

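Solitary CpG sites are CpGs with no other covered CpG near them. They were taken as autosomal CpG positions listed in both the Tet1-null and the WT table, with no other position listed in either table within 500 bp on either side. The rule used position and coverage only, not methylation. It found 67934 sites, which is 0.622% of the 10920360 autosomal sites listed in both tables, from 18722682 positions listed in either table over all chromosomes. They were set against 6852313 autosomal sites whose nearest listed neighbour lay within 50 bp, called close sites here, which made up 62.7% of the sites in both tables.

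The values come from bisulfite sequencing of the whole genome in primordial germ cells, from which eggs and sperm arise, of female C57BL/6 mouse embryos at embryonic day 13.5. The Tet1-null group (genotype Tet1 -/-) held 5 libraries of 1400 to 4700 cells and the WT group (wild type) held 4 libraries of 1575 to 5251 cells. Each genotype's libraries were deposited as 1 pooled table, so every difference below is between 2 pools, with no replicate check and no view of single embryos. The labels name no cell sort, kits and sequencing runs cannot be told apart from genotype in the pools, and the deletion of Tet1 was not checked here. The tables held 46716079 reads over 16372728 sites for Tet1-null and 30386353 reads over 13730600 sites for WT.

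In mammals most methylated cytosines are followed by guanine. Methylated cytosine mutates readily to thymine, so CpGs are rare in most of the genome and crowded in CpG islands. Methylation at a CpG is copied after replication by the maintenance enzyme Dnmt1, and the methylation state of nearby CpGs tends to be alike. Primordial germ cells lose most of their methylation before the age studied, in large part through replication without such copying, and Tet1 encodes a dioxygenase that oxidises 5-methylcytosine. Bisulfite sequencing reads 5-methylcytosine and 5-hydroxymethylcytosine alike as methylated.

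The solitary sites lay where few CpGs were listed. Their nearest listed neighbour was at a median of 603 bp, at 865 bp or less for 90% of them, and at 41699 bp for the most isolated. The wider of the gaps on both sides had a median of 866 bp. Within 5000 bp on both sides they had a median of 38 listed positions, against 98 for close sites. Isolation was judged from covered positions only. Of 149997 autosomal Tet1-null positions with no other Tet1-null position within 500 bp, 36.0% gained a neighbour once the WT table was added. Of the autosomal Tet1-null positions 69.5% were also listed for WT, and of the WT positions 82.9% were also listed for Tet1-null, so about 5.21% of CpGs would be missed by both if coverage were independent. Some solitary sites therefore have a neighbour that was not covered. The spacing of CpGs in the genome sequence was not checked, also not for the widest gaps.

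Coverage was thin at each site, and slightly deeper than at close sites. Solitary sites held 208311 reads in the Tet1-null pool and 159437 in the WT pool, a mean of 3.07 and 2.35 reads per site. Close sites held a mean of 2.90 and 2.21. The median solitary site had 3 reads in the Tet1-null pool and 2 in the WT pool, so levels were computed from reads summed over many sites.

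Solitary sites were nearly unmethylated in both pools, and the difference between the pools was small before any background was subtracted. The level, methylated reads as a share of all reads, was 2.91% in the Tet1-null pool (Wilson 95% interval 2.84 to 2.99%) and 2.73% in the WT pool (2.65 to 2.81%). The Tet1-null level was higher by 0.186 percentage points or 1.07-fold. The 95% interval of this difference was 0.0778 to 0.293 points from counting error (Newcombe) and 0.0613 to 0.310 points from the spread between sites. With each site counted once, the difference was 0.120 points with an interval that included 0 (-0.0205 to 0.261). It turned to -0.160 points at the 1699 solitary sites with 5 or more reads in each pool, and to -0.101 points with an isolation distance of 1000 bp, both with intervals that included 0. On the mitochondrial chromosome, read here as a background of unconverted cytosines, the level was 1.29% in the Tet1-null pool and 1.66% in the WT pool. With it subtracted from each pool, the difference at solitary sites was 0.557 points (0.364 to 0.755).

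Close sites were more methylated in both pools, and the difference between the pools in percentage points was larger there. The level of close sites was 4.58% in the Tet1-null pool and 3.79% in the WT pool. The solitary level minus the close level was -1.67 points in the Tet1-null pool (95% interval -1.74 to -1.60) and -1.06 points in the WT pool (-1.14 to -0.980). The Tet1-null minus WT difference was 0.796 points or 1.21-fold at close sites (0.783 to 0.809 points). The chrM level was not subtracted there, so relative differences of both classes above that background were not compared. The 1.07-fold at solitary sites and the 1.21-fold at close sites both include that background. Neither these values nor a contrast in points shows whether the relative difference was smaller at solitary sites. The difference at solitary sites minus that at close sites was -0.610 points, with a counting interval of -0.719 to -0.502 that excluded 0. Close sites share reads with each other, which makes their intervals too narrow. With 1 close site kept per 500 bp, their difference was 0.598 points, and the contrast was -0.412 points (-0.523 to -0.302). By reads in the shallower pool, the close difference was 0.691 points at 1 read and 0.832 at 2 reads. It was 0.898 points at 3 to 4 reads and 0.930 at 5 to 9 reads. At the deepest sites, with 10 or more reads in each pool, the direction was the opposite. Close sites there held a mean of 56.6 reads in the Tet1-null pool and 31.2 in the WT pool. The 4341 close sites there were at 9.43% in the Tet1-null pool and 12.4% in the WT pool (difference -2.99, -3.20 to -2.78), the 47 solitary sites were at 3.26% in the Tet1-null pool and 3.57% in the WT pool (-0.312, -2.11 to 1.31), and the contrast was 2.68 points (0.862 to 4.31).

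**Figure D1:**
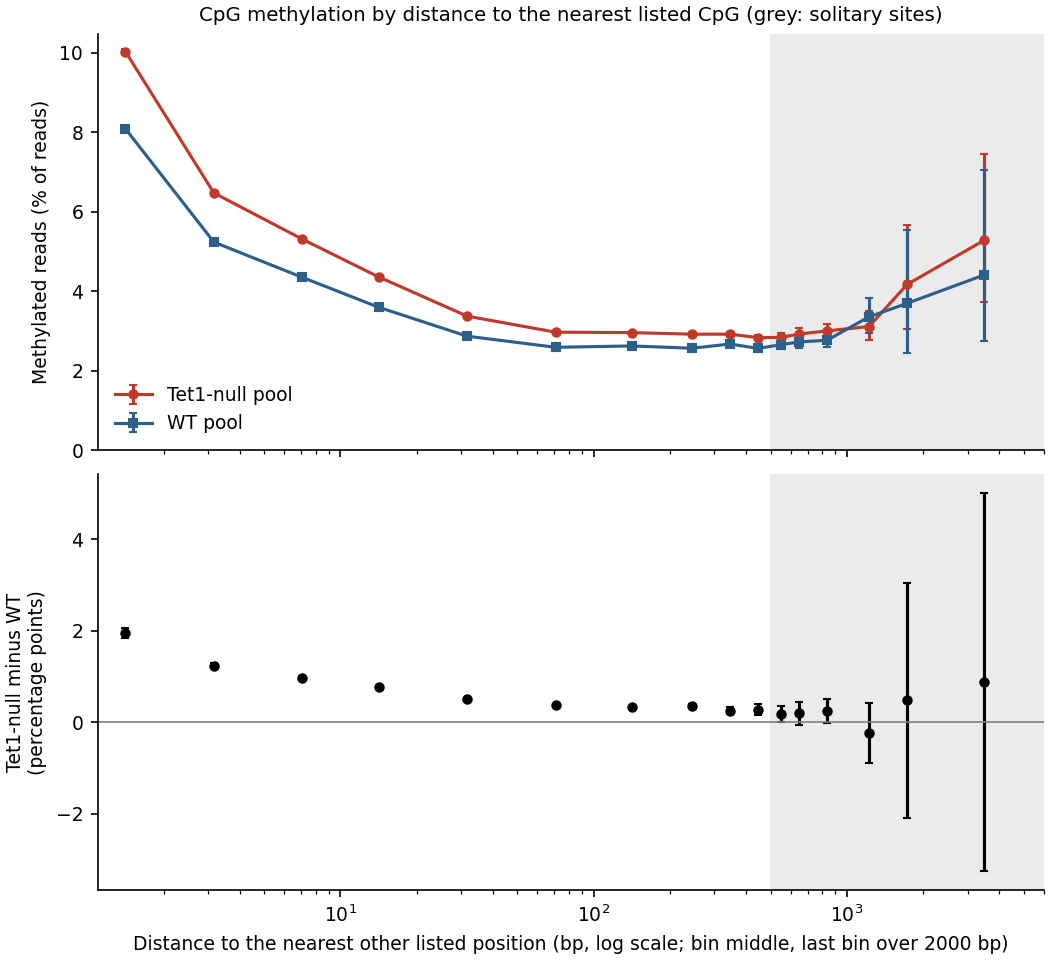
Methylation level (upper panel, % of reads, Wilson 95% intervals) and Tet1-null minus WT difference (lower panel, percentage points, 95% intervals from the spread between sites) of autosomal sites in both pools, by distance to the nearest other listed position on a log axis. The levels drop over the first 50 to 100 bp and are nearly flat from there to 1000 bp. The difference also drops there, to 0.381 points at 50 to 100 bp. It is 0.184 points at 500 to 600 bp and 0.236 points at 700 to 1000 bp, and the bins over 1000 bp rest on few sites.

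The decline of the level with distance was steep at short range and ended well before 500 bp. Sites whose neighbour lay at 2 bp were at 10.0% in the Tet1-null pool and 8.08% in the WT pool, a difference of 1.94 points. From 20 to 50 bp the levels were 3.37% and 2.87% in the Tet1-null and WT pools. From 50 to 100 bp they were 2.97% in the Tet1-null pool and 2.58% in the WT pool, a difference of 0.381 points. Between 100 and 500 bp the level stayed between 2.83 and 2.95% in the Tet1-null pool and between 2.56 and 2.67% in the WT pool. Sites just outside the rule, with a neighbour over 400 and up to 500 bp away, were at 2.83% in the Tet1-null pool and 2.56% in the WT pool. Those just inside, over 500 and up to 600 bp away, were at 2.83% in the Tet1-null pool and 2.65% in the WT pool. The 500 bp limit thus marked no step in level. The difference was lower at 300 to 600 bp than at 100 to 300 bp, though not step by step, and fell no further up to 1000 bp. Beyond 600 bp it was 0.197 points (counting interval -0.0231 to 0.415) at 600 to 700 bp. At 700 to 1000 bp it was 0.236 points (counting interval 0.000846 to 0.468, from the spread between sites -0.0271 to 0.499). At shorter distances it was 0.335 points (0.311 to 0.359) at 100 to 200 bp, 0.353 points (0.311 to 0.395) at 200 to 300 bp, 0.248 points (0.180 to 0.316) at 300 to 400 bp, 0.269 points (0.167 to 0.371) at 400 to 500 bp and 0.184 points (0.0324 to 0.335) at 500 to 600 bp.

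Within the solitary sites, the level was higher at the greatest distances, on few sites. The 64694 sites with a neighbour at 500 to 1000 bp were at 2.89% in the Tet1-null pool and 2.69% in the WT pool, a difference of 0.199 points (0.0889 to 0.308). The 3065 sites at 1000 to 2000 bp were at 3.21% in the Tet1-null pool and 3.38% in the WT pool, a difference of -0.169 points (-0.734 to 0.381). The 175 sites over 2000 bp were at 5.28% of 568 reads in the Tet1-null pool and 4.41% of 363 reads in the WT pool, a difference of 0.874 points (-2.18 to 3.61). In the last 2 classes the difference was not detectable at this depth. With neighbours counted only from positions listed in both pools, a rule that admits more sites, the class over 2000 bp turned to -0.787 points (-1.53 to -0.0722), so its sign was not settled. The differences of these 3 classes did not depart from each other beyond counting error, with intervals such as -0.193 to 0.943 points for the first class minus the second.

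Levels themselves were higher in the more distant classes, judged by counting intervals only. Such intervals are too narrow where reads of a site are alike, and none from the spread between sites was computed for these contrasts. Sites over 2000 bp exceeded those at 500 to 1000 bp by 2.39 points in the Tet1-null pool (0.830 to 4.55) and by 1.71 points in the WT pool (0.0358 to 4.35). Sites at 1000 to 2000 bp exceeded them by 0.318 points in the Tet1-null pool (-0.0289 to 0.703) and by 0.687 points in the WT pool (0.278 to 1.14). Grouped by the wider gap instead, the 193 sites with a gap over 5000 bp on 1 side were at 4.90% in the Tet1-null pool and 4.18% in the WT pool, against 2.87% and 2.70% for the 44205 sites with both gaps up to 1000 bp.

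**Figure D2:**
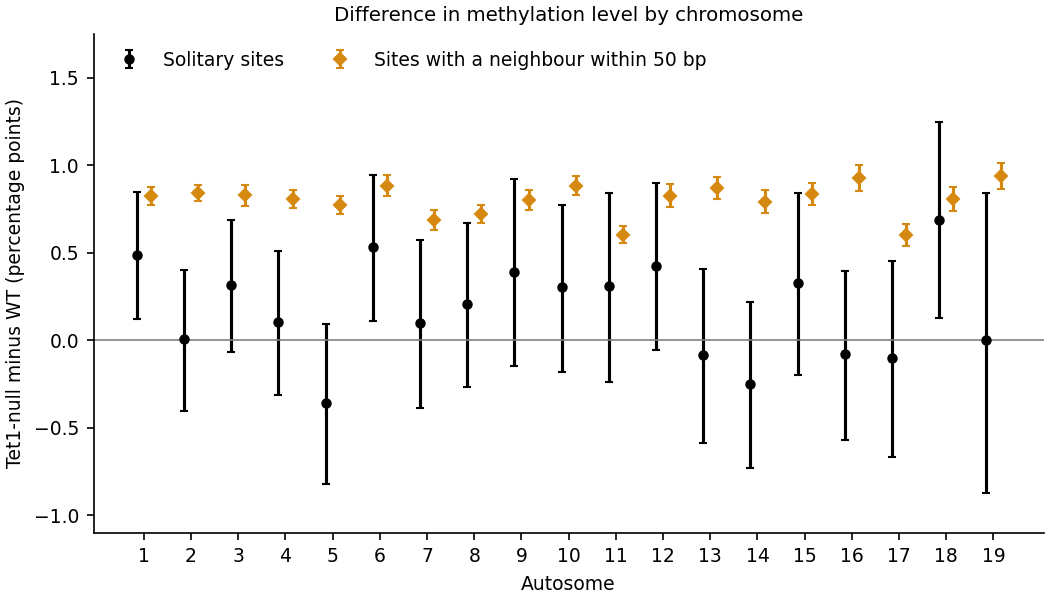
Tet1-null minus WT difference in level (percentage points) on each autosome, for solitary sites (black circles) and for sites with a neighbour within 50 bp (orange diamonds), with counting 95% intervals. All close-site points lie above 0.5 points, while the solitary points spread from -0.359 to 0.689 points with wide intervals.

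By chromosome the solitary sites gave no uniform direction. The Tet1-null level was higher on 13 and lower on 6 of the 19 autosomes, with a median difference of 0.209 points. The counting interval lay above 0 on 3 autosomes and below 0 on 0. At all autosomal sites in both pools it lay above 0 on 100% of the autosomes and below 0 on 0%, and at close sites above 0 on all 19, with differences of 0.600 to 0.938 points. Chromosomes with fewer solitary sites have wider intervals, so a count of calls also reflects their precision.

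The 3 autosomes whose interval excluded 0 were chromosomes 1, 6 and 18. Chromosome 1 was at 3.33% in the Tet1-null pool and 2.85% in the WT pool (difference 0.485, interval 0.120 to 0.846). Chromosome 6 was at 3.02% in the Tet1-null pool and 2.49% in the WT pool (0.531, 0.110 to 0.944). Chromosome 18 was at 3.13% in the Tet1-null pool and 2.44% in the WT pool (0.689, 0.124 to 1.24). The lowest difference was on chromosome 5, at 2.66% in the Tet1-null pool and 3.02% in the WT pool (-0.359, -0.819 to 0.0900). With intervals from the spread between sites the count above 0 was again 3.

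Set against close sites of the same chromosome, the solitary sites were the less methylated on each of the 19 autosomes in both pools. Their levels ranged from 2.32 to 3.33% in the Tet1-null pool and from 2.22 to 3.14% in the WT pool, where close sites ranged from 3.88 to 5.03% and from 3.12 to 4.21%. The genotype difference at solitary sites minus that at close sites was below 0 on all 19 autosomes, between -1.13 and -0.117 points, and its interval excluded 0 on 12. Solitary sites made up between 0.371% of the sites in both tables on chromosome 11 and 0.849% on chromosome 3, with a median of 28.0 solitary sites per Mb over the autosomes.

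Position along the chromosome was examined as distance from the first listed base. Mouse autosomes have their centromere at that end. In the first 10 Mb the 6292 solitary sites were at 3.04% in the Tet1-null pool and 3.23% in the WT pool, a difference of -0.189 points (-0.567 to 0.182). From 10 to 50 Mb the difference was 0.100 points (-0.0822 to 0.281), and from 50 to 100 Mb it was 0.285 points (0.111 to 0.459). From 100 Mb on, the 12619 sites were at 3.05% in the Tet1-null pool and 2.72% in the WT pool, a difference of 0.333 points (0.0792 to 0.583). The difference of the first 10 Mb minus that from 100 Mb on was -0.521 points (-0.975 to -0.0719), and minus that from 10 to 50 Mb it was -0.289 points (-0.708 to 0.125). Both contrasts were chosen after the values were seen. Their intervals cover counting error only, and none was computed from the spread between sites, which gave wider intervals for the single differences. Only the longer autosomes reach 100 Mb, so the first contrast mixes position with chromosome. Local density gave no ordered change. Solitary sites with up to 15 listed positions within 5000 bp were at 3.66% in the Tet1-null pool and 3.13% in the WT pool. With 16 to 25 they were at 2.86% and 2.73% in these pools, and with 26 to 40 at 2.77% and 2.72%. With 41 to 60 they were at 2.97% and 2.58%, and with 61 or more at 3.22% and 3.08%. The difference was 0.388 points (0.196 to 0.578) with 41 to 60, and the intervals of the other classes included 0.

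**Figure D3:**
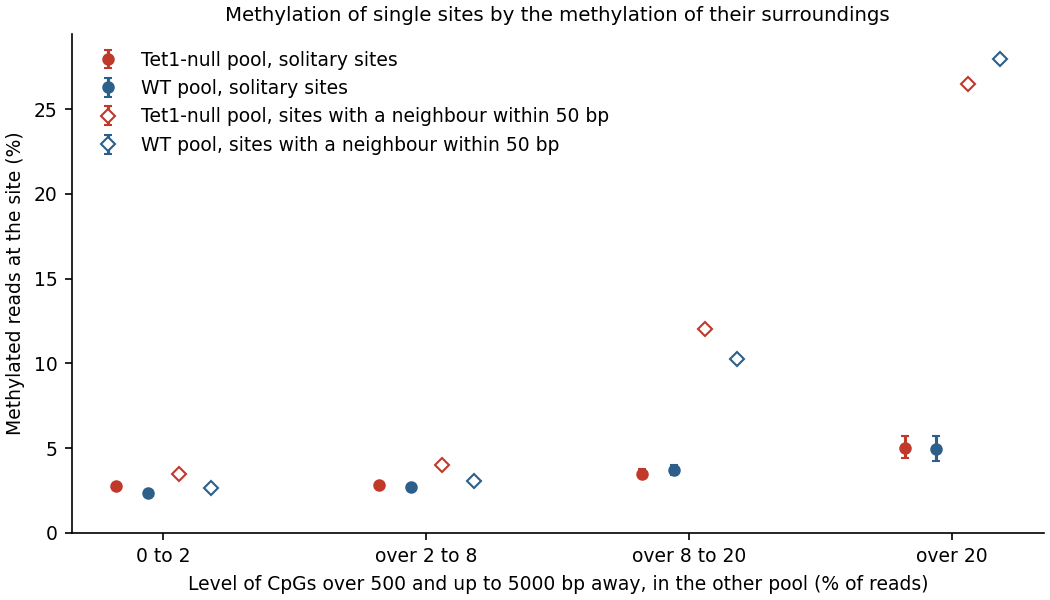
Level at single sites (% of reads, Wilson 95% intervals) by the level of the CpGs over 500 and up to 5000 bp away, taken from the other pool. Solitary sites (filled circles) stay at or below 5.03% in every class, while sites with a neighbour within 50 bp (open diamonds) reach 26.5% in the Tet1-null pool and 28.0% in the WT pool.

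Solitary sites stayed low even where the CpGs around them kept methylation. Surroundings were defined as all listed CpGs over 500 and up to 5000 bp away, with at least 20 reads, and were classed by their level in the pool that was not measured at the site. Beside surroundings over 20%, solitary sites were at 5.03% in the Tet1-null pool (1323 sites, 4.40 to 5.74%) and at 4.93% in the WT pool (1446 sites, 4.24 to 5.73%). The surroundings of these sites, read in the same pool as the sites themselves, were at 21.9% in the Tet1-null pool and 21.9% in the WT pool. Beside surroundings of 0 to 2% they were at 2.75% in the Tet1-null pool and 2.38% in the WT pool.

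The rise from the lowest to the highest class of surroundings was 2.28 points in the Tet1-null pool (1.64 to 2.99) and 2.55 points in the WT pool (1.85 to 3.36). Close sites followed their surroundings far more. Beside surroundings over 20% they were at 26.5% in the Tet1-null pool and 28.0% in the WT pool, and solitary minus close was -21.5 points (-22.1 to -20.8) and -23.1 points (-23.8 to -22.2) in these pools. Beside surroundings of 0 to 2% the same contrast was -0.727 points in the Tet1-null pool and -0.282 points in the WT pool.

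The genotype difference at solitary sites was also taken by class of surroundings. With surroundings up to 1%, taken as the mean of both pools, it was 0.474 points (2.75% in the Tet1-null pool and 2.28% in the WT pool, interval 0.188 to 0.756). With surroundings over 1 and up to 2% it was 0.306 points (0.0726 to 0.537). With surroundings over 8 and up to 20% it was -0.165 points (-0.603 to 0.267), on 3.71% in the Tet1-null pool and 3.87% in the WT pool. With surroundings over 20% it was 0.139 points (-1.04 to 1.28). The intervals of the classes between 2 and 8% also included 0. The difference in the class up to 1% minus that in the class from 8 to 20%, a pair chosen after the values were seen, was 0.638 points (0.120 to 1.16), and no trend over all 6 classes was tested.

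**Figure D4:**
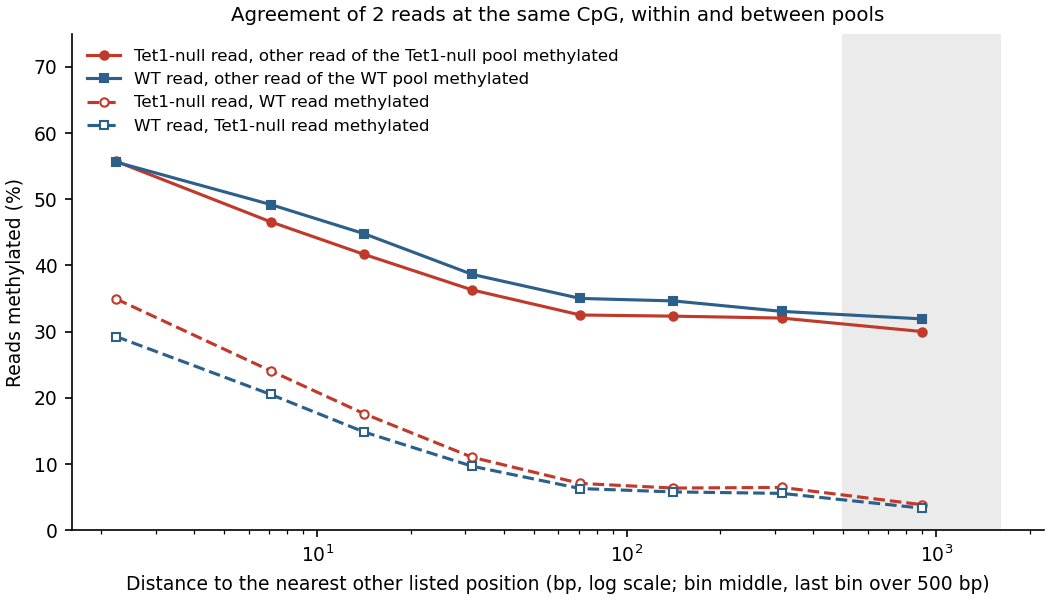
Share of reads methylated at a CpG given that another read there was methylated (%), by distance to the nearest other listed position on a log axis. Filled symbols compare reads of the same pool at sites with exactly 2 reads there, and open symbols compare the single reads of both pools at sites with exactly 1 read in each. At solitary sites the same-pool values are 30.0% for the Tet1-null pool and 31.9% for the WT pool, and the values between pools are 3.87% for the Tet1-null read and 3.35% for the WT read.

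Methylated reads at solitary sites hardly recurred at the same site in the other pool. At the 6598 solitary sites with exactly 1 read in each pool, the Tet1-null read was methylated at 7 of the 181 sites where the WT read was, or 3.87% (1.89 to 7.77%), against a Tet1-null level of 3.17% over these sites. The WT read was methylated at 7 of the 209 sites where the Tet1-null read was, or 3.35% (1.63 to 6.75%), against a WT level of 2.74%. At close sites the same shares were 22.3% in the Tet1-null pool and 19.02% in the WT pool, where the levels were 5.42% and 4.62%. With a neighbour over 100 and up to 200 bp away they were 6.38% in the Tet1-null pool and 5.80% in the WT pool. With a neighbour over 200 and up to 500 bp away they were 6.48% and 5.58% in these pools. These values lay inside the solitary intervals, so low recurrence was not particular to solitary sites.

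Over all solitary sites a small excess was measurable. Where the WT pool had a methylated read, the Tet1-null level was 4.38%, against 2.82% where it had none, a difference of 1.55 points (1.19 to 1.94). Where the Tet1-null pool had a methylated read, the WT level was 4.17%, against 2.61% where it had none, a difference of 1.56 points (1.2004 to 1.94). At close sites these differences were 10.6 points for the Tet1-null pool and 8.54 points for the WT pool.

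Within a pool, reads at a solitary site were far more alike. At sites with exactly 2 reads in the Tet1-null pool, 142 had both methylated and 662 had 1 methylated, so a read beside a methylated read was methylated in 30.0% of cases. In the WT pool the sites numbered 171 and 729, and the share was 31.9%. With a neighbour over 200 and up to 500 bp away the shares were 32.1% in the Tet1-null pool and 33.1% in the WT pool. At close sites they were 44.8% and 46.5% in these pools. With 4 reads at a solitary site the share was 16.5% in the Tet1-null pool and 15.9% in the WT pool. Reads of a site are thus not independent within a pool, and intervals from counting error alone are too narrow. The treatment of duplicate reads is not known here, and its part in these shares was not tested.

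Single solitary sites were mostly at 0%. No methylated read was seen at 93.1% of them in the Tet1-null pool (92.9 to 93.3%) and at 94.8% in the WT pool (94.6 to 94.9%). At close sites the shares were 90.9% in the Tet1-null pool and 93.8% in the WT pool. More reads per site lower this share, and the Tet1-null pool was the deeper one. Of 13697 solitary sites with 3 or more reads in each pool, 167 were at 50% or more in the Tet1-null pool and 187 in the WT pool. Both lists held 3 of these sites, which is 1.80% of the Tet1-null list and 1.60% of the WT list. Of the close sites with that depth, the lists held 32249 in the Tet1-null pool and 28446 in the WT pool and shared 6807, which is 21.1% of the Tet1-null list and 23.9% of the WT list. Of 1699 solitary sites with 5 or more reads in each pool, 3 were at 50% or more in the Tet1-null pool, 8 in the WT pool and 0 in both. Close sites with that depth shared 713, which is 39.3% of their Tet1-null list and 42.7% of their WT list. The overlap that lists of these sizes would have at random was not computed, nor was the share over all autosomal sites. The sites shared by both solitary lists are therefore not read as an overlap above or below random.

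No solitary site was called different between the pools. Fisher's exact test (two-sided) was run on all 206846 autosomal sites with 5 or more reads in each pool, with Benjamini-Hochberg adjustment, and calls were limited to an adjusted p below 0.05 with at least 20 points between the pools. It called 0% of all sites higher and 0% lower, and 0 of the 1699 solitary sites tested. At an unadjusted p under 0.05, 1 solitary site was higher and 3 were lower, 0.235% of those tested, against 283 higher and 706 lower or 0.478% of all autosomal sites tested. The test had little reach, since 42 of the 1699 sites had enough reads to pass even with complete separation of the pools. A call would have concerned these pooled reads, not the genotypes as such.

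The sites with the greatest differences among those with 5 or more reads in each pool rested on few reads. Positions are in mm9 and count from 1, taking the tables' start column as 0-based, which was not checked on the genome. The site at chromosome 9, position 75728190, held 3 methylated reads of 5 in the Tet1-null pool and 0 of 9 in the WT pool (p = 0.0275, adjusted p = 1, Fisher's exact test). That at chromosome 7, position 7300662, held 3 of 5 in the Tet1-null pool and 1 of 7 in the WT pool, and that at chromosome 2, position 36381382, held 3 of 7 and 0 of 6 in these pools. In the other direction, the site at chromosome 14, position 113650189, held 0 of 5 in the Tet1-null pool and 4 of 5 in the WT pool. That at chromosome 7, position 147867600, held 1 of 8 in the Tet1-null pool and 4 of 5 in the WT pool. That at chromosome 15, position 5332073, held 0 of 7 in the Tet1-null pool and 4 of 6 in the WT pool (p = 0.0210, adjusted p = 1, Fisher's exact test). None of these 6 passed the adjusted threshold.

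The deepest solitary sites were close to unmethylated in both pools. At chromosome 5, position 15119941, 511 bp from its nearest neighbour, 1 of 79 reads was methylated in the Tet1-null pool and 1 of 38 in the WT pool. At chromosome 9, position 29548967, the counts were 2 of 83 in the Tet1-null pool and 1 of 28 in the WT pool. At chromosome 8, position 19800097, they were 0 of 72 in the Tet1-null pool, which allows a level of up to 4.17% by the rule of 3 reads over the total (Wilson upper limit 5.07%), and 0 of 34 in the WT pool, which allows up to 8.82% by that rule (10.2%). Chromosome 17, position 29241757, held 0 of 31 in the Tet1-null pool and 0 of 29 in the WT pool. Chromosome 1, position 26743798, held 1 of 28 in the Tet1-null pool and 0 of 28 in the WT pool. Depths this far above the median of 3 and 2 reads were rare, with 47 solitary sites at 10 or more reads in each pool.

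The most isolated sites with 3 or more reads in each pool held no methylated read. The site at chromosome 10, position 99807366, lay 12117 bp from its nearest listed neighbour and had 0 of 11 reads methylated in the Tet1-null pool, which allows up to 27.3% by the rule of 3 reads, and 0 of 4 in the WT pool. Chromosome 14, position 6710692, lay 10218 bp away, with 0 of 17 in the Tet1-null pool, which allows up to 17.6%, and 0 of 5 in the WT pool. Chromosome 6, position 121950167, had 0 of 3 in the Tet1-null pool and 0 of 7 in the WT pool. Chromosome 7, position 10089700, had 0 of 3 in each pool. Chromosome 8, position 40238399, had 0 of 15 in the Tet1-null pool and 0 of 9 in the WT pool. Whether any of the named sites lie in genes, and their sequence, was not analysed here.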

How the data were processed

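Each genotype's libraries (5 Tet1-null, 4 WT) were pooled by the authors in 1 table. As deposited, it gives per CpG the methylation level as a fraction and the count of reads. Their product was a whole number of reads at 100% of sites (tolerance 0.0005 per read). The submitters' processing notes name the build mm9 and the tool bedtools. Neither the aligner nor the treatment of duplicates is given in the sources used here. The authors' deposited filter discards a read once C followed by a base other than G exceeds 1.2% of its length, which can lower all levels.

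Methylated and total reads were summed in Python 3.11.15 (scipy 1.17.1, pandas 2.3.3, numpy 2.4.6, numba 0.67.0); matplotlib 3.10.9 drew the figures. Intervals are Wilson (levels), Newcombe (differences) and square-and-add (differences of differences), all 95%. They cover counting error only: without molecular identifiers, PCR reads need not be independent molecules. A linearised interval from the spread between sites was added. The procedure was tested on simulated data with independent reads. Reads of a site were not independent here, so that test does not show how well the intervals cover in these data. The sites named were the 5 most isolated with 3 or more reads in each pool, the 5 deepest in the shallower pool and, with no site called, the 3 largest rises and 3 largest falls among those with 5 or more reads in each pool. Members, classes and tests were chosen with earlier results of these data known. Alternatives varied weighting, read minimums, equal depth, deep sites, distances and the chrM level.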

Additional observations from a re-analysis of the deposited data

Results flagged for a closer look

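Solitary CpGs of the X chromosome and the chrM sites lay outside the autosomal comparisons. Their methylated reads exceeded the limit that a count of 0 allows, as those of any class with more than 3 methylated reads would. The 9247 solitary sites of the X were at 3.35% of 28519 reads in the Tet1-null pool (Wilson 95% interval 3.14 to 3.56%) and at 3.26% of 21970 reads in the WT pool (3.04 to 3.51%). These levels exceeded those of autosomal solitary sites by 0.432 points in the Tet1-null pool (0.217 to 0.659) and by 0.536 points in the WT pool (0.295 to 0.792). The Tet1-null minus WT difference on the X was 0.0816 points (-0.235 to 0.394), and the autosomal minus the X difference was 0.104 points (-0.226 to 0.439). Close sites of the X were at 8.32% in the Tet1-null pool and 7.85% in the WT pool. The 241 chrM sites in both pools were at 1.29% of 63075 reads in the Tet1-null pool and 1.66% of 33263 reads in the WT pool.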

How the results depend on the processing

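No paired analysis was possible because the tables pool each genotype's libraries, and for the same reason leaving out each replicate was not run. Sites with exactly 1 read or with 10 or more reads in each pool and the intervals from the spread between sites were added after seeing the data. In the comparisons, 36 alternative values fell inside the main 95% interval (for counts, within 1.5-fold), 13 fell outside and 5 changed sign against an interval that excluded 0. The 16 named sites stayed within their intervals when thinned. Thinning drew from the same reads, and sites with no methylated read in either pool could not move, so this was no independent check. The causes were not tested.

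The solitary difference of 0.186 points turned to -0.160 points where each pool had 5 or more reads (-0.606 to 0.281), to -0.312 points with 10 or more (-2.11 to 1.31), and to -0.101 points with an isolation distance of 1000 bp (-0.657 to 0.440). It became 0.424 points with exactly 1 read in each pool (-0.155 to 1.01) and 0.557 with the chrM level subtracted. For neighbours at 500 to 1000 bp it became 0.309 points with neighbours counted from positions in both pools only. Over 2000 bp it moved to -2.40 points with 3 or more reads, with an interval from -8.48 to 2.81, and with neighbours from positions in both pools only it was -0.787 (-1.53 to -0.0722), also of the other sign.

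The close difference of 0.796 points became 0.869 with 3 or more reads, 0.593 with 5 or more, -2.99 with 10 or more, 0.754 at equal depth, 1.003 with a neighbour within 20 bp, 0.698 within 100 bp and 0.598 with 1 site per 500 bp. The value with 5 or more reads includes the sites with 10 or more. At 5 to 9 reads in the shallower pool the close difference was 0.930 points. The chrM level was subtracted at solitary sites only. The contrast of solitary minus close of -0.610 points became -0.753 with 5 or more reads, -0.412 with 1 close site per 500 bp and -0.377 with exactly 1 read in each pool, where the interval (-0.961 to 0.208) included 0. With 10 or more reads in each pool it turned to 2.68 points (0.862 to 4.31), and it was negative in the other alternatives run.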
